A study of Mus musculus with 23 samples.

Results

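The cytochrome P450 genes and Por were followed in the small intestine of mice fed quercetin with a high-fat diet. The set held every gene whose name on the array is Cyp followed by a number, a letter and an optional number, together with Por. Cyp51, Cyp1a1, Cyp1b1, Cyp4a10, Cyp4a14, Cyp24a1 and Cyp2e1 were left out by name. This gave 82 genes (81 P450 genes and Por) of the 34741 on the array, read by 104 probes on 122 spots. A further 8 names began like a P450 gene but lacked this form, such as pseudogene names and Cyp4a12a, and were not members.

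Scrapings of the small intestine came from 23 adult male C57BL/6J mice, an inbred strain, with 1 array per mouse. After 3 weeks of adaptation to normal-fat food, all ate a high-fat diet over 12 weeks, which was plain for 12 mice (HF) and contained 0.33% by weight of quercetin, a plant flavonol, for 11 mice (HF-Q). Every mouse therefore had the high-fat diet, and no chow-fed group is part of the comparison. Each mouse's RNA carried Cy5 and was hybridised with a common pool in Cy3 made from all the mice. Every value below is the log2 ratio of a mouse to that pool, and the dyes were not swapped. The arrays lay on 3 slides that each held both diets. Nothing in the labels ties a pair of mice to a shared cage or litter. In a scraping, fewer cells of a type and less RNA per cell cannot be told apart.

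A P450 enzyme inserts oxygen into its substrate. The P450 enzymes of the endoplasmic reticulum use electrons that Por passes on from NADPH. Families 1 to 3 mainly oxidise drugs, plant compounds and other foreign molecules, and enterocytes carry some of them as a first barrier to what is eaten. Families 2j and 4 mainly oxidise fatty acids and eicosanoids, and the remaining families make or break down sterols, bile acids, steroid hormones and vitamins A and D. Many mouse P450 genes stand in clusters of close copies, so a probe may read more than its own gene.

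Probe sequences show how close those copies are, and they bear on what is meant by a detected gene. All 104 probes are 60 bases long. The scanner files list 8 probes, of 7 genes, against more than 1 RefSeq gene: both probes of Cyp2a4, and 1 each of Cyp2c66, Cyp2c67, Cyp2c68, Cyp2j13, Cyp3a11 and Cyp4a31. Sequences and mm9 coordinates are those of the scanner files, and the position is where the probe begins in its transcript. The exons and UTRs at these places were not analysed here. The probe of Cyp3a11, the main gut P450 of drug metabolism, at position 1104 (chr5:146672058-146673925, minus strand, spanning 1868 bases of the genome and so crossing a junction) is listed against 4 genes, Cyp3a11, Cyp3a41a, Cyp3a41b and Cyp3a44. The 2 probes of the fatty acid hydroxylase Cyp4a31 shown with it lie on the plus strand, at position 1181 (chr4:115243923-115243982) and at position 736 (chr4:115242872-115242931), and the one at 736 is also listed against Cyp4a10. No base is marked in these.
Cyp3a11, position 1104: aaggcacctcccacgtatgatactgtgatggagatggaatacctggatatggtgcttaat
Cyp4a31, position 1181: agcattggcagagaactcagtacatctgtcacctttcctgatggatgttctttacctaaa
Cyp4a31, position 736: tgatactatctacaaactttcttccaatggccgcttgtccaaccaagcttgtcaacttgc

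Probes of different genes also matched at many bases, with mismatches between, without being listed together. The probe of Cyp2c37 at position 1242 (chr19:40084382-40084441, plus strand) was aligned without gaps to probes of Cyp2c29 at position 1230 (chr19:39403642-39403701, plus strand), of Cyp2a4 at position 1272 (chr7:27098659-27099724, plus strand) and of Cyp2j13 at position 1360 (chr4:95712305-95723288, minus strand). Capitals mark the bases identical to Cyp2c37. There are 27 in the 31 bases where Cyp2c29 overlaps it, 39 of 52 for Cyp2a4 and 31 of 40 for Cyp2j13. These probes gave different readings in the same RNA: those of Cyp2c37, Cyp2c29 and Cyp2j13 were well above background on 23 arrays, and that of Cyp2a4 on 0. A second pair is shown because Cyp4f40 has 1 of the 3 smallest p-values below: Cyp4f40 (chr17:32812862-32812921, plus strand) and Cyp4f17 (chr17:32665243-32665302, plus strand) share 37 of 51 bases, in capitals.
Cyp2c37, position 1242: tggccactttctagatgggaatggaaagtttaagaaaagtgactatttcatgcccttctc
Cyp2c29, position 1230: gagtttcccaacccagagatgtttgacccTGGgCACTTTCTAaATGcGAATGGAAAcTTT
Cyp2a4, position 1272: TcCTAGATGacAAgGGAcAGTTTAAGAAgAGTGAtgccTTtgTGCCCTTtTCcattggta
Cyp2j13, position 1360: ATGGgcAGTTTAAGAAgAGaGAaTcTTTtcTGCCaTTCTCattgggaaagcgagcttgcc
Cyp4f40, position 1330: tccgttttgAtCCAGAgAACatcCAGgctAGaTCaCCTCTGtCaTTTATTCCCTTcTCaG
Cyp4f17, position 1454: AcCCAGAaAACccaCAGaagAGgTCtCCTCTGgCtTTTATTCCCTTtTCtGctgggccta

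The first question was which of these genes the gut expresses at a level the array can read. A probe counted as detected on an array when the scanner software marked its Cy5 signal well above background, and a gene was kept for measurement when 1 of its probes reached 50% or more of the HF arrays or of the HF-Q arrays. Of the 82 genes, 60 (73.2%) were kept, beside 61.8% of all genes on the array. By their best probe, 56 were detected on all 23 arrays, 17 on some and 9 on no array. No member was saturated on any array. Array signals of different probes are not comparable, so detection does not rank the genes by abundance.

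Most of the drug-metabolising families were present. Of their 41 genes, 30 were detected on all arrays. They were all 7 Cyp3a genes (Cyp3a11, Cyp3a13, Cyp3a16, Cyp3a25, Cyp3a44, Cyp3a57 and Cyp3a59), 12 of 13 Cyp2c genes (Cyp2c29, Cyp2c37, Cyp2c38, Cyp2c39, Cyp2c44, Cyp2c54, Cyp2c55, Cyp2c65, Cyp2c66, Cyp2c67, Cyp2c68 and Cyp2c70), 7 of 9 Cyp2d genes (Cyp2d10, Cyp2d11, Cyp2d12, Cyp2d13, Cyp2d22, Cyp2d26 and Cyp2d40), Cyp2b9 and Cyp2b10, which are known targets of the receptor CAR, and Cyp2f2 and Cyp2t4. Cyp2a12 and Cyp2d34 were detected on 22 arrays and Cyp2b23 on 21. Cyp2a4, a steroid 15-alpha-hydroxylase, reached 10 arrays, Cyp2a22 reached 7, Cyp2c50 reached 6 and Cyp2d9 1. Cyp1a2, Cyp2b13, Cyp2b19 and Cyp2g1 were detected on none. Cyp1a2 is a liver enzyme of caffeine oxidation, Cyp2b19 is known from skin and Cyp2g1 from the olfactory lining.

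Fatty acid and eicosanoid oxidases were nearly as well covered, with 16 of 20 genes on all arrays. They comprised the omega-hydroxylases Cyp4a31 and Cyp4a32, 7 Cyp4f genes (Cyp4f13, Cyp4f14, Cyp4f15, Cyp4f16, Cyp4f17, Cyp4f18 and Cyp4f40), the epoxygenase family members Cyp2j6, Cyp2j8, Cyp2j9 and Cyp2j13, and Cyp2u1, Cyp4b1 and Cyp4v3. Cyp4f39 was detected on 4 arrays, Cyp2j5 and Cyp2j11 on 2 each, and Cyp4x1 on none.

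Among the sterol and bile acid enzymes, Cyp27a1 (sterol 27-hydroxylase), Cyp39a1 and Cyp46a1 (which act on or make 24-hydroxycholesterol) were on all arrays, and Cyp7b1, the oxysterol 7-alpha-hydroxylase, was on 17. Cyp7a1, the rate-limiting enzyme of bile acid synthesis in the liver, was on none and Cyp8b1, the sterol 12-alpha-hydroxylase, on 1. Of the 6 steroid hormone enzymes, Cyp17a1 and Cyp21a1 were on all arrays, the aromatase Cyp19a1 on 3, Cyp11b1 on 1, and Cyp11a1 and Cyp11b2 on none. Of the vitamin enzymes, the vitamin D 25-hydroxylase Cyp2r1 and the retinoic acid hydroxylase Cyp26b1 were on all arrays. Cyp27b1, the 1-alpha-hydroxylase of vitamin D, was on 5, Cyp26a1 on 1 and Cyp26c1 on none. Por and the less known Cyp20a1 and Cyp2s1 were on all arrays, and Cyp2w1 was on 1.

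**Figure D1:**
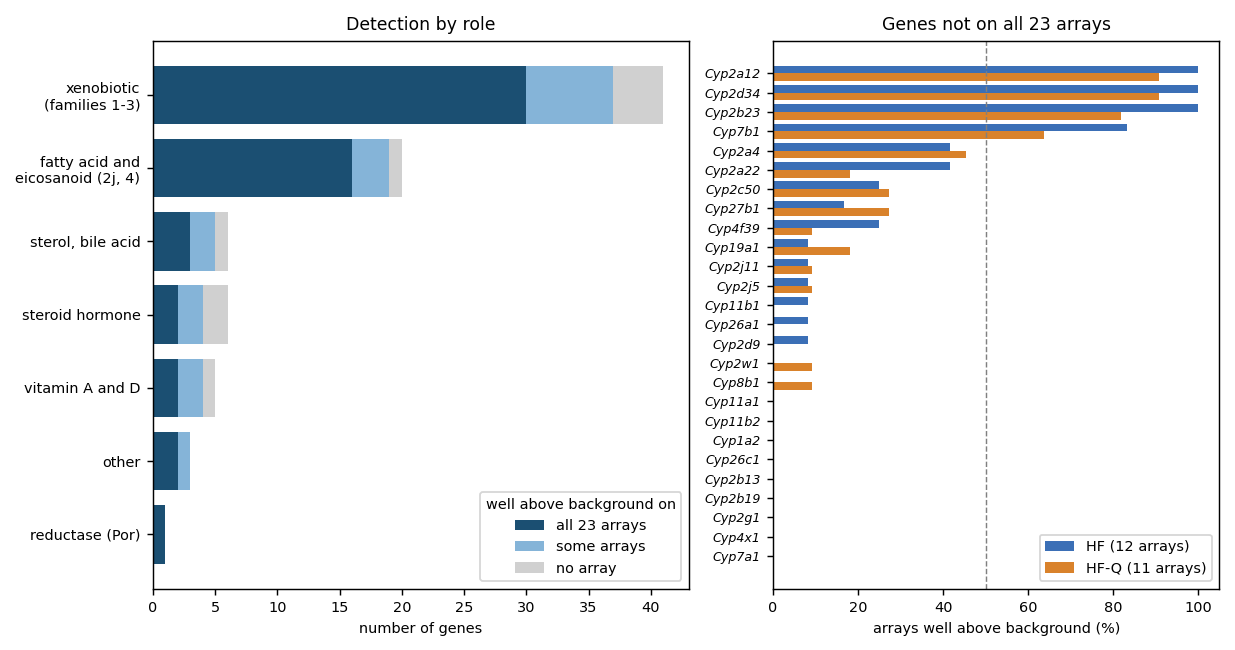
Left, number of genes of each role that were well above background on all 23, some or no arrays. Right, for the 26 genes not on all arrays, the percentage of HF (blue, 12 arrays) and HF-Q (orange, 11 arrays) arrays on which the gene was well above background, with a dashed line at 50%. Of these, 4 genes reach the line (Cyp2a12, Cyp2d34, Cyp2b23 and Cyp7b1), and 9 have no bar.

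Detection of a gene could rest on which probe was read. Cyp2c54 has a probe at position 760 (chr19:40144659-40144718, minus strand) on 23 arrays, and probes at 778 (chr19:40122119-40144700, minus strand) and 1614 on none. The first pair overlap by 42 identical bases, in capitals, and the second of them runs on past a junction, since it spans 22582 bases of the genome. The remaining 18 bases are where the 2 probes differ.
Cyp2c54, position 760: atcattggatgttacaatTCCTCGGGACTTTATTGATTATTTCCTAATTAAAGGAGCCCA
Cyp2c54, position 778: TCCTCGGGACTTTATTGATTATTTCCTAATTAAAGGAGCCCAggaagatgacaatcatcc
Cyp21a1 was likewise on 23 arrays at position 1858 and on none at position 399. Of the other genes with several probes, Cyp2c38 and Cyp2j8 each had a probe on 23 arrays and a probe on none, the 3 probes of Cyp2j13 were on 23, 14 and 3 arrays, those of Cyp3a59 on 23 and 8, those of Cyp2d34 on 22 and 1, and those of Cyp2a4 on 10 and 0.

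The labels disagree about the tissue in 1 place, where the protocol for RNA extraction names liver. Among P450 genes best known from liver, Cyp7a1 and Cyp1a2 were on no array and Cyp8b1 on 1, whereas Cyp2c29, Cyp2c37, Cyp2c70, Cyp2d26 and Cyp3a25 were on 23 and Cyp2a12 on 22. Of 12 hepatocyte markers Ahsg and Mup3 were on none, Fgb and Hpx on 2 and Alb on 11, while 7, several of them also made in gut, were on all. All 12 enterocyte markers were on all 23 arrays. The mean log2 ratio of 9 pancreatic acinar markers ran from -3.85 to 2.30 over the mice (mean -1.13 in HF, -1.71 in HF-Q), and that of 7 smooth muscle markers from -1.40 to 1.09 (mean -0.015 and -0.26). The part of this in the results was not tested except where a value is given.

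No difference between the diets in which P450 genes were detected was found. For the 17 members on some arrays, the count of arrays in each diet was compared by Fisher's exact test, two-sided, and 0 had an unadjusted p under the threshold of 0.05, beside 0.884% of the 8597 genes on some arrays. The smallest was that of Cyp2b23, detected in 12 of 12 mice on HF and in 9 of 11 on HF-Q (p = 0.217). A gene on very few or on nearly all arrays cannot reach the threshold, however its arrays divide between the diets. Most of the 17 members, Cyp2b23 among them, were of this kind, so for them the test could not show a difference. Cyp2a22 was on 5 of 12 and 2 of 11, and Cyp7b1 on 10 of 12 and 7 of 11.

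The second question was whether quercetin changed the level of the 60 measured genes. None passed: by limma over all 23 arrays, with Benjamini-Hochberg adjustment over 21477 genes, 0 members and 0 genes (0%) had an adjusted p under 0.05. The smallest adjusted p of any gene was 0.951. At an unadjusted p under 0.05 there were 3 members, or 5% of the 60, beside 4.53% of all genes. Of these, 2 were higher with quercetin (Cyp3a44 and Cyp4f40; 2.1% of all genes) and 1 was lower (Cyp2r1; 2.42% of all genes). No member, and 0 of all genes, had HF and HF-Q values that did not overlap.

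The fold changes were small and mostly below 0. Values of 20 members were higher with quercetin and of 40 lower, so 33.3% were higher, beside 48.1% of all genes. Many members moved together across the mice (median r of 0.34 over their pairs), so these are not counts of independent genes. The median log2 fold change was -0.037 for the members and -0.0038 for all genes, and the median size without sign was 0.081 and 0.050. The split depends on the scaling. With arrays centred on their median in place of loess, all genes had a median of 0.049 and the members of 0.015, and 34 members were higher and 26 lower. In the authors' table of log2 values it was 28 and 33, and with array weights 27 and 33. In these 3 settings the members' median stayed below that of all genes. It also differed between slides, with 38 higher and 22 lower on slide 1 (median 0.068), 16 and 44 on slide 2, and 18 and 42 on slide 3. Leaving out 1 mouse moved the members' median between -0.061 (without HF-Q replicate 3) and -0.014 (without HF replicate 4). For 56 of the 60 members the 95% confidence interval lay within a 1.5-fold change in either direction, as it did for 97.1% of all genes.

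**Figure D2:**
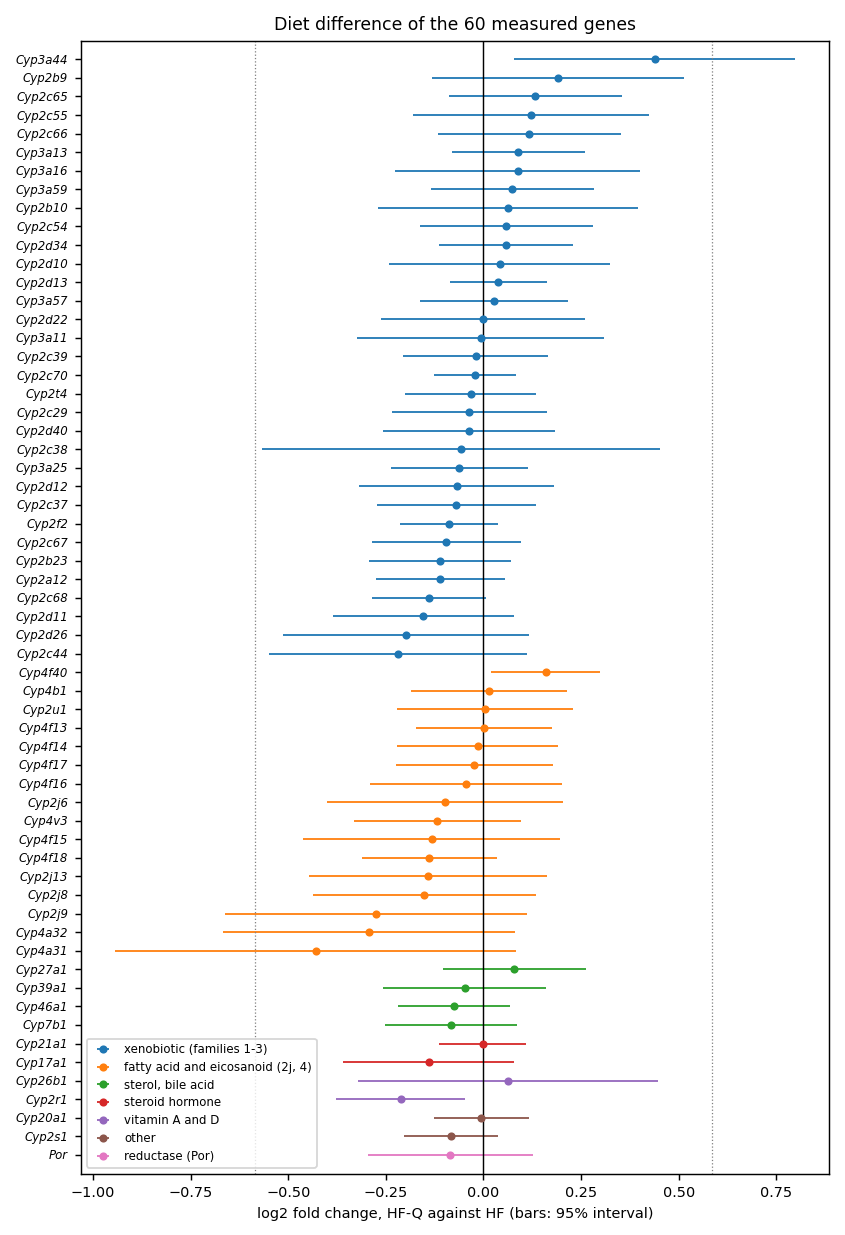
Log2 fold change of HF-Q against HF for the 60 measured genes, with the 95% confidence interval, coloured by role. Dotted lines mark a 1.5-fold change. Among the points to the right of 0, the intervals of Cyp3a44 and Cyp4f40 lie above 0. To the left, that of Cyp2r1 lies below 0.

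Among the drug-metabolising genes, 14 were higher and 19 lower with quercetin (median -0.020). Cyp3a44, a female-predominant Cyp3a gene in mouse liver, had the highest fold change of all members. Its log2 ratio ran from -0.85 to 0.48 in HF (median -0.29) and from -0.77 to 0.98 in HF-Q (median 0.12). The diets overlapped over most of that range, and 10 of 11 HF-Q mice were above the HF median. The difference was 0.44 ± 0.17 (SE; a fold of 1.36, unadjusted p = 0.0190, limma adjusted p = 0.951), with 0.20 on slide 1, 0.48 on slide 2 and 0.72 on slide 3. The Cyp3a11 probe that is also listed against Cyp3a44 gave 0.12 ± 0.15.

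Cyp2b9, Cyp2c65 and Cyp2c55 followed. Cyp2b9 ran from -0.74 to 0.77 in HF (median -0.10) and from -0.39 to 0.75 in HF-Q (median 0.074), a difference of 0.19 ± 0.16. Cyp2c65 ran from -0.54 to 0.46 (median -0.20) and from -0.27 to 0.44 (median 0.000075), a difference of 0.13 ± 0.11. Cyp2c55 differed by 0.12 ± 0.15. All overlapped almost fully. At the other end, Cyp2c44, an epoxygenase of arachidonic acid, ran from -0.29 to 1.24 in HF (median 0.24) and from -0.67 to 0.79 in HF-Q (median 0.14). Its difference was -0.22 ± 0.16, and 9 of the 11 HF-Q values lay under the HF median.

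The fatty acid and eicosanoid genes held most of the low end, with 4 higher and 12 lower and a median of -0.11. Cyp4a31 and Cyp4a32, fatty acid omega-hydroxylases of a family that PPARA induces, had the lowest fold changes of all members. Cyp4a31 ran from -0.83 to 1.57 in HF (median 0.28) and from -1.12 to 0.87 in HF-Q (median 0.0063). Its difference was -0.43 ± 0.25 (unadjusted p = 0.0975), and 8 of the 11 HF-Q values lay under the HF median. Its 2 other probes, whose sequences stand above, gave -0.29 ± 0.18 at position 1181 and -0.12 ± 0.14 at position 736. Cyp4a32 ran from -0.55 to 1.19 (median 0.14) and from -0.81 to 0.45 (median 0.050), a difference of -0.29 ± 0.18. Cyp2j9, of the epoxygenase family, ran from -0.57 to 0.78 (median 0.14) and from -1.02 to 0.79 (median -0.022), a difference of -0.27 ± 0.19. In each of these 3 genes the diets overlapped, and the lowest mouse was on HF-Q.

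Cyp4f40 was the one gene of its group with a small p in the other direction. It ran from -0.44 to 0.23 in HF (median -0.018) and from -0.20 to 0.24 in HF-Q (median 0.18), and 9 of 11 HF-Q mice were above the HF median. The difference was 0.16 ± 0.068 (unadjusted p = 0.0268, limma adjusted p = 0.951), with 0.30 on slide 1, 0.14 on slide 2 and 0.028 on slide 3.

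Cyp2r1, which makes 25-hydroxyvitamin D, ran from -0.12 to 0.53 in HF (median 0.11) and from -0.26 to 0.25 in HF-Q (median -0.094). The HF median exceeded 9 of the 11 HF-Q values. Its difference was -0.21 ± 0.080 (unadjusted p = 0.0137, limma adjusted p = 0.951), with -0.24 on slide 1, -0.45 on slide 2 and 0.015 on slide 3. Its other probe, also on 23 arrays, gave 0.017 ± 0.089, so the difference was seen with 1 of its 2 probes.

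Por, the reductase on which all microsomal P450 enzymes depend, ran from -0.34 to 0.70 in HF (median -0.072) and from -0.39 to 0.28 in HF-Q (median -0.056). The diets overlapped, and the difference was -0.085 ± 0.10 (unadjusted p = 0.413). It was 0.011 after median centring. Of the smaller groups, the 4 sterol genes had 1 higher and 3 lower, the 2 steroid hormone genes both lower, and Cyp20a1 and Cyp2s1 both lower. Their fold changes lay between -0.14 and 0.079, with Cyp21a1 at -0.0015 and Cyp20a1 at -0.0052. The other probe of Cyp20a1, also on 23 arrays, gave 0.055 ± 0.084, so its direction depended on the probe. In the Cy3 pool, the probe used for Cyp20a1 was well above background on 1 array, and the other probe on 23. The pool was also dim for the probes used for Cyp2b23 (0 arrays), Cyp7b1 (3), Cyp2a12 (10) and Cyp2d34 (11). The ratios of these genes are therefore less certain.

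**Figure D3:**
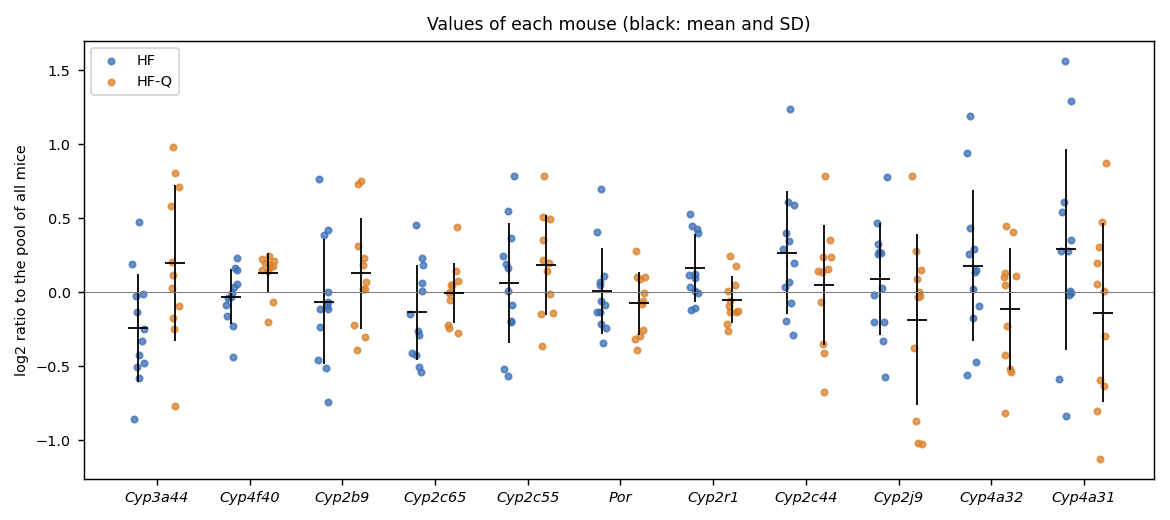
Log2 ratio to the pool of each mouse for the 11 named genes, HF in blue and HF-Q in orange, with the mean and SD in black. The diets overlap in every gene, and the spread is widest in Cyp4a31.

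The genes on which P450 enzymes depend showed no call either. Of 8 measured redox partners and endoplasmic reticulum proteins, 3 were higher and 5 lower and 0 passed. Cyb5b, the outer mitochondrial cytochrome b5, differed by -0.18 ± 0.090 and Cyb5a, the microsomal cytochrome b5, by 0.094 ± 0.055. Of 9 haem synthesis genes, 4 were higher and 5 lower, led by Alad (0.12 ± 0.062) and Cpox (-0.093 ± 0.048). Of 17 transcription factors known to regulate P450 genes, 5 were higher and 12 lower (median -0.042). The smallest p there belonged to Ahr, the receptor behind Cyp1 induction (-0.15 ± 0.068, unadjusted p = 0.0401, limma adjusted p = 0.951). Ppara, the receptor behind Cyp4a induction, differed by -0.25 ± 0.13. Of 3 measured epoxide hydrolases, 1 was higher and 2 lower, with Ephx3 at -0.091 ± 0.060 and Ephx1 at 0.14 ± 0.16.

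P450 genes varied between mice more than most genes did. The SD over the 23 mice had a median of 0.25 for the members and 0.16 for all genes, 54 of 60 members were above the latter, and 10 members exceeded 0.4, as did 5.11% of all genes. The widest were Cyp4a31 (SD 0.67), Cyp2c38 (0.63), Cyp3a44 (0.49), Cyp2j9 (0.49), Cyp4a32 (0.48) and Cyp26b1 (0.47). Cyp2c38 ran from -1.34 to 0.96 and Cyp26b1, which breaks down retinoic acid, from -0.69 to 1.11. The members were a set of detected genes, and probe signal was not matched in this comparison.

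Much of that variation was shared within several subfamilies. Over the 1770 pairs of the 60 genes, 26 had a Pearson r above 0.9 across the 23 mice, or 1.47%, beside 0.0671% of pairs of all genes. Pairs of the same subfamily made up 22 of the 26. The median r was 0.54 for the 146 pairs of the same subfamily, 0.31 for the 1624 other pairs and -0.0060 for pairs of all genes. All 6 pairs of Cyp2j genes lay between 0.89 and 0.99, whereas Cyp3a pairs ran from -0.44 to 0.95 and Cyp4f pairs from -0.65 to 0.97. The 3 Cyp2b pairs ran from -0.11 to 0.90, with a median of -0.1. The closest pairs were Cyp2c65 with Cyp2c66 (r = 0.991) and Cyp2j8 with Cyp2j13 (r = 0.988), then Cyp4a31 with Cyp4a32 (r = 0.975) and Cyp4f13 with Cyp4f17 (r = 0.974). In Cyp2c65 and Cyp2c66 the probe of Cyp2c66 is also listed against Cyp2c65. The probe used for Cyp2j13 is also listed against Cyp2j12. For these 4 pairs the permutation p was 1e-05, the smallest that 100000 permutations give, adjusted to 0.000154 over the 1770 pairs. Spearman's rho was 0.949 to 0.991, and within the 3 slides r was 0.939 to 0.997. Whether shared transcripts or cross-reading probes move with these correlations was not tested.

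The 5 members most like Por were Cyp2d11 (r = 0.852), Cyp2d26 (r = 0.820), Cyp2d12 (r = 0.769), Cyp2c29 (r = 0.752) and Cyp2b10 (r = 0.726), each over 23 mice.

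RefSeq promoters of build GRCm38.p6 were searched for motifs in the 47 of the 60 genes that have an entry (54 promoters). In the 250 bases before the start, the letters CAAAGTCCA, a binding motif of the gut and liver factor HNF4A, stood on either strand in 6 of the 54 promoters (11.1%) and in 0.384% of 32851 promoters of all genes. They were those of Cyp2c65, Cyp2c67, Cyp2c68, Cyp2c70, Cyp3a11 and Cyp3a16, chosen for display after the search. A match is a description and not a binding site, and close copies are not independent of each other. In all, 5 motifs were searched. The letters TATAAA stood in 31.5% of the members' promoters and 12.4% of all, the GATA letters AGATAA in 20.4% and 9.99%, the HNF1 half-site letters GTTAAT in 9.26% and 6.43%, and the CDX-type letters TTTATGG in 1.85% and 2.43%. Both pairs shown moved together across the mice (Cyp3a11 with Cyp3a16, r = 0.954, and Cyp2c67 with Cyp2c68, r = 0.935). The probe used for Cyp2c67 is also listed against Cyp2c68 and Cyp2c40, and that of Cyp2c68 against Cyp2c40 and Cyp2c69. Another Cyp2c67 probe shares 55 of 59 bases with that of Cyp2c68. Whether shared reading moves with the r of that pair was not tested. Capitals mark CAAAGTCCA, which began 109 bases before the start in Cyp3a11 (chr5:145879855-145880104, minus strand), 99 in Cyp3a16 (chr5:145469724-145469973, minus strand), 125 in Cyp2c67 (chr19:39649043-39649292, minus strand) and 77 in Cyp2c68 (chr19:39741102-39741351, minus strand).
Cyp3a11 promoter: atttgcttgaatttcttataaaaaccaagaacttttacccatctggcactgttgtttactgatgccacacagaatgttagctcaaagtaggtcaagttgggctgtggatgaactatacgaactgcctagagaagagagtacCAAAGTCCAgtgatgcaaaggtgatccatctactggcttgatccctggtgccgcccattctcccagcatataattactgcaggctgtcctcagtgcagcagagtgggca
Cyp3a16 promoter: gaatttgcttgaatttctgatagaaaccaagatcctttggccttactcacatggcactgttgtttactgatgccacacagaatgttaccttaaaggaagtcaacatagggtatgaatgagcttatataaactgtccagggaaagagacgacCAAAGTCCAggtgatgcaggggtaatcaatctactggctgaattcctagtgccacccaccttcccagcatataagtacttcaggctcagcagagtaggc
Cyp2c67 promoter: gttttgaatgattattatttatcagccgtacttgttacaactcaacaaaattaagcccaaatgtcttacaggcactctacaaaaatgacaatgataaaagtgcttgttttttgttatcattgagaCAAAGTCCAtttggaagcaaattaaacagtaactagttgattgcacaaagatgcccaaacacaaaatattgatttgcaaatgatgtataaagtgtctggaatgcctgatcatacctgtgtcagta
Cyp2c68 promoter: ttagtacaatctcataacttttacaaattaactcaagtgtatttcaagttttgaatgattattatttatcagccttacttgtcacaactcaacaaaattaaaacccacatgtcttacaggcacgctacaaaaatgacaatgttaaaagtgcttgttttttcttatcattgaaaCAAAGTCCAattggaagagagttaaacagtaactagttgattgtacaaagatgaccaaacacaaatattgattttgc

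P450 genes are known to be strongest in the proximal small intestine, and scrapings can hold unequal lengths of gut. A score was therefore made for each mouse, the mean log2 ratio of 9 markers of the distal small intestine minus that of 11 markers of the proximal, and each gene was fitted against it with diet as a second term. Across the 23 mice the distal and proximal means were only weakly opposed (r = -0.361, permutation p = 0.0924, rho = -0.265, permutation p = 0.222). Without HF replicates 3 and 1 that r was -0.0128. Whether the score follows position along the gut was not tested. Slopes were negative, meaning lower with a higher score, for 45 of 60 members (75%), beside 48.3% of all genes. At an unadjusted p under 0.05, 11 members had a negative slope, beside 6.64% of all genes. Of the 60 members, 1 was past the threshold, a share close to the 1.33% of all genes. It was Cyp3a13, a Cyp3a gene of the intestine. Its slope was -0.33 ± 0.072 (limma adjusted p = 0.0165), and -0.36 with an adjusted p of 0.243 after median centring. Across the 23 mice its r was -0.701 (permutation p = 0.00014) and its rho -0.766 (permutation p = 4e-05). The r was -0.687 without the 2 mice farthest from the median score, and -0.412, -0.925 and -0.863 within slides 1 to 3. Without HF replicate 1 the adjusted p was 0.0759 and 0 members passed, and without HF replicate 2 there were 4.

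Against the proximal markers alone, many more members passed. The relation was examined further after this was seen. Of the 60 members, 36 had an adjusted p under 0.05, 34 of them higher and 2 lower where the proximal list was higher, beside 19.8% of all genes in either direction and 8.32% in the upward one. After median centring 46 passed, all higher, beside 34.4% of all genes. With that scaling 76.5% of all genes had a slope above 0, and the median slope was 0.88 for the members and 0.21 for all genes. With loess the median slope was 0.68 for the members and -0.0096 for all genes. In the direction of the list, the 5 highest slopes past the threshold were those of Cyp2d26 (1.56 ± 0.22), Cyp2b10 (1.43 ± 0.29), Cyp2b9 (1.35 ± 0.28), Cyp4f15 (1.28 ± 0.31) and Cyp4a32 (1.25 ± 0.38), and Por was among the 34 (0.90 ± 0.18). Cyp39a1 (-0.75 ± 0.21) and Cyp2t4 (-0.50 ± 0.18) were the 2 in the other direction.

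The mice at the ends of the proximal list weighed heavily in this count. At the lower end, 26 passed without HF replicate 10 (list mean -0.32). Towards the upper end, 29 passed without HF replicate 4 (list mean 0.31). HF replicate 3 had a list mean of 0.57 and HF replicate 1 of 0.46. The count was 20 without HF replicate 3, 29 without HF replicate 1 and 5 without both, when 4.51% of all genes passed. The size of the slopes moved less: their median was 0.68 with all mice and 0.63 without both, and 49 and 51 of the 60 were above 0. Enterocyte markers moved with the list: their mean correlated with it at r = 0.728 (permutation p = 0.00010, adjusted 0.00030 over 15 lists; rho = 0.644, permutation p = 0.00134), and at 0.546 without both mice. With the enterocyte mean as a further term 0 members passed, as did 0.657% of all genes. The members' median slope was then 0.48 (all genes -0.029), and 48 slopes were above 0. With the mean of the smooth muscle markers as a further term 22 passed.

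Single genes kept part of the relation without HF replicates 3 and 1. Cyp2d26 had the highest values in HF replicate 3 (1.04) and HF replicate 1 (0.74). Its r with the proximal list was 0.833 (permutation p = 1e-05, rho = 0.774, permutation p = 3e-05), and 0.691 without both. It was 0.812, 0.903 and 0.724 within the slides. Cyp2b10 had r = 0.709 (permutation p = 0.00012, rho = 0.748, permutation p = 9e-05), and 0.633 without both. For Por, r was 0.736 (permutation p = 0.00017), rho 0.563 (permutation p = 0.00616) and r without both 0.408, so its relation leaned more on those mice. Cyp4a32 had r = 0.564 (permutation p = 0.00571) and 0.297 without both, with rho = 0.330 (permutation p = 0.126), and its relation rests on them. Cyp39a1 had r = -0.596 (permutation p = 0.00272, rho = -0.621, permutation p = 0.00196), and -0.503 without both. In all, 180 such relations were computed, of 60 genes with 3 summaries, and the adjusted values over all genes are those of the limma slopes.

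**Figure D4:**
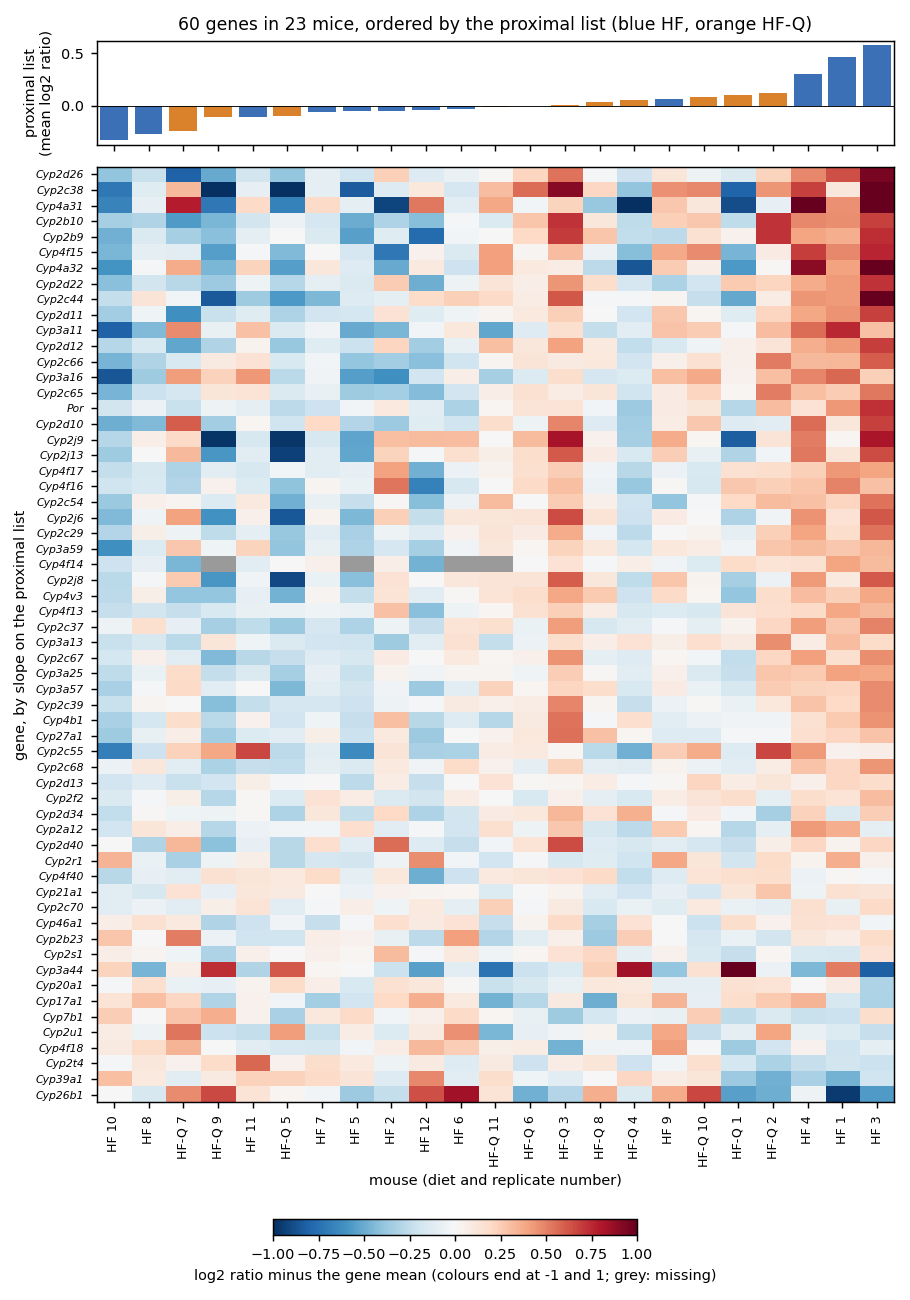
Log2 ratio of the 60 genes (rows, by their slope on the proximal list) in 23 mice (columns, by the mean of the proximal list, drawn above in blue for HF and orange for HF-Q). Red is above and blue below the gene's own mean, and grey marks 4 missing values of Cyp4f14. HF replicates 3, 1 and 4 on the right are red in most upper rows.

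**Figure D5:**
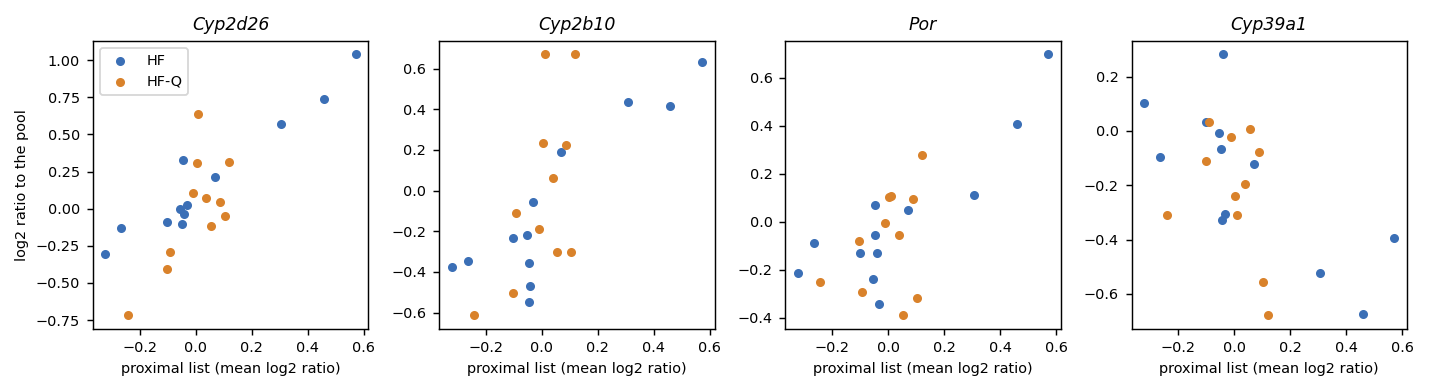
Log2 ratio to the pool of Cyp2d26, Cyp2b10, Por and Cyp39a1 against the mean log2 ratio of the 11 proximal markers, 1 point per mouse, HF in blue and HF-Q in orange. Cyp2d26 climbs and Cyp39a1 descends along the axis, and HF replicates 3 and 1 are the points farthest to the right.

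With the distal minus proximal score as a covariate in the diet comparison, 0 members passed and 21 were higher with quercetin and 39 lower. The proximal list itself had a mean of 0.041 in HF (from -0.32 to 0.57) and -0.0028 in HF-Q (from -0.24 to 0.12).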

How the data were processed

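The deposited scanner files hold spot and background intensity values read with Agilent Feature Extraction 10.7.3.1, per the file headers, and a log10 ratio (Cy5 to Cy3) that the authors' software computed. The authors' further table holds log2 values for 31718 spots in the direction of Cy5, each column with a median of 9.11. The sources used here do not say how that median was reached. Here, limma 3.58.1 in R 4.3.3 applied normexp (offset 50) and loess within arrays, with the 3671 control spots at weight 0. Outlier spots, 260 to 355 on an array, were dropped, and the spots of each probe were averaged. Probes well above background in Cy5 on 50% or more of the HF or of the HF-Q arrays were kept, 29249 of 55681, and the brightest probe stood for a gene. HF-Q was compared with HF without covariates, two-sided, with a threshold of 0.05. The number of arrays limits the precision.

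Genes were named after RefSeq GRCm38.p6 where the accession or name matched, which it did for 81 of the 82 members. Cyp2c44 kept the file's name. Named genes were those with an unadjusted p under 0.05, the 5 highest and 5 lowest fold changes and Por, and by the same rule the 6 widest, the 5 most like Por and 2 of each further list. Members and lists were chosen with earlier results of these data known. Correlations used 100000 permutations in Python, two-sided, with 4 missing values at the gene's mean. The models were tested on simulated data. The main comparison did not treat mice of the same replicate number as pairs. Nothing in the labels says how samples were drawn beyond 1 array per mouse, so p-values measure the spread between these samples.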

Additional observations from a re-analysis of the deposited data

How the results depend on the processing

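No alternative gave a member past the threshold for diet, among them the authors' log10 ratio, median centring, Cy5 alone, the authors' table, the filters, probe averaging, slide as a block, within slides, array weights, the score as covariate and each mouse left out. With the replicate number as a block, which drops HF replicate 12, 0 members passed and 19 were higher and 41 lower (median -0.050). Of 11 same-numbered pairs, 5 correlated above 0.1 (-0.342 to 0.388). Pairs of unlike number were not compared, so these values cannot decide whether the numbers pair the mice. Among the 11 named genes, the fold changes that turned were those of Por after median centring (0.011), Cyp2j9 within slide 1 (0.048), Cyp2b9 (-0.037) and Cyp2c65 (-0.033) within slide 2, and Cyp2r1 within slide 3 (0.015); the cause was not tested. The 1 call on the distal minus proximal score became 0 after median centring, 0 with the distal list alone and 36 with the proximal list alone. For the proximal list, the alternatives added after seeing the data gave 5 without the 2 farthest mice (median slope 0.63, against 0.68 with all), 0 with the enterocyte term (0.48), 22 with the smooth muscle term, and 20 to 38 with each mouse left out. Detection kept 56 genes when all arrays were required or when the Cy3 pool was read, and 73 when 1 array sufficed. Members near background have little signal to show a change, and those not kept have no measured level here.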

Other observations

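Of the 4 lists of genes that serve P450 enzymes, 3 varied closely with the proximal markers. This was not particular to them. Enterocyte markers did so at r = 0.728, and 19.8% of all genes had a slope on the proximal list past the threshold. Over the 23 mice the mean of the 8 redox partners and endoplasmic reticulum proteins correlated with the proximal list at r = 0.765 (permutation p = 4e-05, adjusted 0.00015 over 15 lists; rho = 0.690, permutation p = 0.00047), and at 0.571 without HF replicates 3 and 1. The mean of the 9 haem synthesis genes did so at r = 0.762 (permutation p = 2e-05, adjusted 0.00015; rho = 0.568, permutation p = 0.00515), and at 0.536 without both. That of the 17 regulators reached r = 0.765 (permutation p = 2e-05, adjusted 0.00015; rho = 0.591, permutation p = 0.00364), and 0.614 without both. The 3 epoxide hydrolases had r = 0.555 (permutation p = 0.00552, adjusted 0.0118; rho = 0.414, permutation p = 0.0508), and 0.278 without both, so that relation rests on those mice. Within the 3 slides, r was 0.972, 0.710 and 0.650 for the redox partners, 0.653, 0.861 and 0.875 for haem synthesis, and 0.918, 0.757 and 0.632 for the regulators.

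Markers of Paneth cells, the antimicrobial cells of the crypt base, went the other way, at r = -0.733 (permutation p = 4e-05, adjusted 0.00015; rho = -0.796, permutation p = 3e-05), and at -0.680 without both mice. Within the slides their r was -0.664, -0.867 and -0.761. Markers of B and plasma cells had r = -0.737 (permutation p = 0.00019, adjusted 0.000475; rho = -0.572, permutation p = 0.00462), and -0.364 without both. Within the slides it was -0.902, -0.782 and -0.609.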
